A study of Mus musculus with 6 samples.

Results

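Retinoid binding, synthesis and receptor genes were followed in whole uteri of ovariectomised C57Bl/6 mice after a single injection of estradiol (E2), the main ovarian estrogen. The members were chosen by symbol from a list of 9 genes: the retinoic acid carriers Crabp1 and Crabp2, the retinol carrier Rbp4, the retinoic acid producing enzymes Aldh1a1 and Aldh1a2, and the receptors Rara, Rarb, Rarg and Rxra. The array annotation paired 10 probe sets with 8 of these genes, out of 12422 probe sets and 8251 named genes in all. No probe set was paired with Rarb, the retinoic acid receptor beta gene, so it was not analysed here.

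Uteri were taken after vehicle, or 1, 3, 6, 12 and 24 h after estradiol (0.05 µg per animal, under the skin), and the pooled RNA of each group was read on 1 array. All groups were C57Bl/6 females aged 10 to 11 weeks, with no genetic change named in the labels, killed 7 days after their ovaries were removed, so the vehicle array describes an organ deprived of ovarian hormone and the others the same organ after a single dose of estradiol. The labels name 10 mice, and do not state if each group had that many. Vehicle was injected 24 h before the uteri were taken, so it is matched in time since injection to the 24 h group only, and for the earlier times the effects of handling and of hormone cannot be told apart. Since a group is a single array, there is no replicate spread and no test, and every fold below sets 1 array against another.

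Retinol reaches tissues bound to Rbp4 and is oxidised to retinal by alcohol and short-chain dehydrogenases, and Aldh1a enzymes then make retinoic acid. Crabp proteins bind retinoic acid in the cell, Cyp26 enzymes destroy it, and pairs of a retinoic acid receptor with a retinoid X receptor act on genes that carry repeats of a short core sequence. In the uterus, vitamin A is known to keep the epithelium simple and secretory, and its lack leads to a keratinised lining.

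The promoter windows of Crabp1, Aldh1a2 and Rarg are shown because these 3 genes stood furthest from vehicle, at the detection floor used here, among the members with an entry in the RefSeq promoter table of GRCm38.p6; Crabp2 had none. Each window runs from 250 bases before to 50 bases after an annotated start and is written on the strand of the gene. Capitals mark matches, on either strand, to GGTCA, the core bound by many nuclear receptors, and to GGGCGG, the GC box bound by Sp1. The Crabp1 window lies at chr9:54764498-54764797 on the plus strand, the Aldh1a2 window at chr9:71215539-71215838 on the plus strand, and the Rarg window, around the more upstream of its 2 starts in the table, at chr15:102257473-102257772 on the minus strand.
Crabp1: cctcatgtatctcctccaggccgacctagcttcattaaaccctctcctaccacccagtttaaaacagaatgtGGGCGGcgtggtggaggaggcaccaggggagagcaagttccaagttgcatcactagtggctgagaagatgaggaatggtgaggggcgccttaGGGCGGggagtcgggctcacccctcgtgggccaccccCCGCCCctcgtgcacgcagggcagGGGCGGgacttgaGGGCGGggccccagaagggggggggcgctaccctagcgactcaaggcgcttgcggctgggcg
Aldh1a2: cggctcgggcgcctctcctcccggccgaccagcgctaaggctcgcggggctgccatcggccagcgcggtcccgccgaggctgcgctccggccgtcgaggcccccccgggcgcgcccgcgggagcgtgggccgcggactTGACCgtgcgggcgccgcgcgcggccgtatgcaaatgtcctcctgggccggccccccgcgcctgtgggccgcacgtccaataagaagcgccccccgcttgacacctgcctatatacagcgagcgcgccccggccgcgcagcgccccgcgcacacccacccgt
Rarg: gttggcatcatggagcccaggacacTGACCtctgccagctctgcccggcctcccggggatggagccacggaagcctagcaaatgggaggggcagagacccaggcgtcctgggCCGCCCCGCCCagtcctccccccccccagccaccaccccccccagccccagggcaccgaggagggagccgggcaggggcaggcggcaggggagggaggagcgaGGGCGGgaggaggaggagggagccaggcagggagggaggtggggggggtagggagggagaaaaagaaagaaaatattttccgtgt
The Crabp1 window held 5 matches to GGGCGG and none to GGTCA. At least 5 GC boxes occurred in 2.71% of the 32851 windows of the table, and at least 1 in 35.7%. The Aldh1a2 window held 1 match to GGTCA, on the minus strand with its first base at position -112 from the start, and the Rarg window 1 at position -225, also on the minus strand. A GGTCA match was present in 40.5% of all windows. Longer motifs built from 2 GGTCA cores were also sought on both strands: the palindromic estrogen response element, with 3 bases between the cores, and direct repeats with 5 or 2 bases between them. No exact match to these was found in any window of the members. Repeats of another core, such as GTTCA, were not sought, so the windows may hold other direct repeats. These 3 motifs were in 0.0700%, 0.0761% and 0.222% of all windows.

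Values are MAS5 signal intensities on a linear scale, and a detection floor was set at 142.8 signal units, the 40th percentile of all values. Where 1 array of a pair lay below it, the fold is given as "at least", and no fold is given where both did. Signals are compared between arrays for the same probe set only, never between genes. A gene at least 2-fold from vehicle was counted as higher or lower. In whole-organ RNA, fewer cells of a type and less RNA per cell cannot be told apart.

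The arrays for vehicle and for 1, 6, 12 and 24 h had pairwise Spearman correlations, over all probe sets, of 0.929 to 0.968. For pairs with the array labelled 3 h they were only 0.843 to 0.857. On that array all 12 genes of a skeletal muscle list, which was drawn up after its values were seen, were at least 2-fold above vehicle. The fast myosin gene Myh4 had a signal of 14211 there, against 1.30 on the vehicle array. Of 11 smooth muscle markers, 9 were at least 2-fold lower on the same array. Over all measured genes there, 11.4% were at least 2-fold higher than vehicle and 13.0% lower. The summed smooth muscle signal was 16485 on the array labelled 3 h, against 59245 in vehicle. The array labelled 3 h is therefore given apart and enters no course. As a check for an estradiol response, the progesterone receptor gene Pgr had signals of 160 in vehicle and 285, 870, 602 and 281 at 1, 6, 12 and 24 h. Ltf, named for the same check, had 2689 in vehicle and 3437, 1975, 1413 and 2078 at these times. Unlike Pgr, Ltf was thus below vehicle from 6 h on.

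Among differences measured with both arrays above the floor, that of Aldh1a2 at 6 h was the largest of the members. Aldh1a2 encodes a retinaldehyde dehydrogenase that makes retinoic acid. Its signal was 300.2 in vehicle, 248 after 1 h, 1763 after 6 h, 965 after 12 h and 500.3 after 24 h. The 6 h array was by far the highest, and the later arrays stepped down towards vehicle. At 6 h it was 5.87-fold higher than vehicle, the 12th highest ratio among 5328 genes measured on both arrays. Later ratios were 3.21-fold at 12 h and 1.67-fold at 24 h. Between the arrays themselves, the 6 h signal was 7.11-fold above that of 1 h, and the 24 h signal was 3.52-fold below that of 6 h.

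Crabp2, whose protein delivers retinoic acid to its nuclear receptors, was below the floor before 6 h and above it afterwards. Signals were 96.0 in vehicle, 132 after 1 h, 510.0 after 6 h, 381 after 12 h and 532 after 24 h. The 3 later arrays were all well above the 2 earlier ones. Against the floor, Crabp2 was at least 3.57-fold higher than vehicle at 6 h, at least 2.67-fold at 12 h and at least 3.73-fold at 24 h. Unlike Aldh1a2, it stood as high at 24 h as at 6 h, with a ratio of 1.04 between these arrays.

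Crabp1, the related carrier linked in textbooks to retinoic acid storage and breakdown, first reached the floor at 12 h. It had signals of 69.6 in vehicle, 73.9 after 1 h, 136 after 6 h, 282 after 12 h and 439.5 after 24 h, so the first 3 arrays lay below the floor and 24 h was the highest. Its fold over vehicle was at least 1.97 at 12 h, just under the 2-fold minimum, and at least 3.08 at 24 h. Both carriers were thus above vehicle at 12 and 24 h, whereas at 6 h only Crabp2 was above the floor. The bounds of both carriers depend on the floor. With it at the 60th percentile, the log2 ratio at 24 h was 0.32 for Crabp1 and 0.59 for Crabp2, both under 2-fold. With it at the 20th percentile, the ratio at 24 h was 2.66 for Crabp1 and 2.47 for Crabp2. Under that lower floor, Crabp1 stood at 0.97 at 6 h and 2.02 at 12 h, and Crabp2 at 2.41 and 1.99. The time at which each carrier departs from vehicle thus depends on the floor too.

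**Figure D1:**
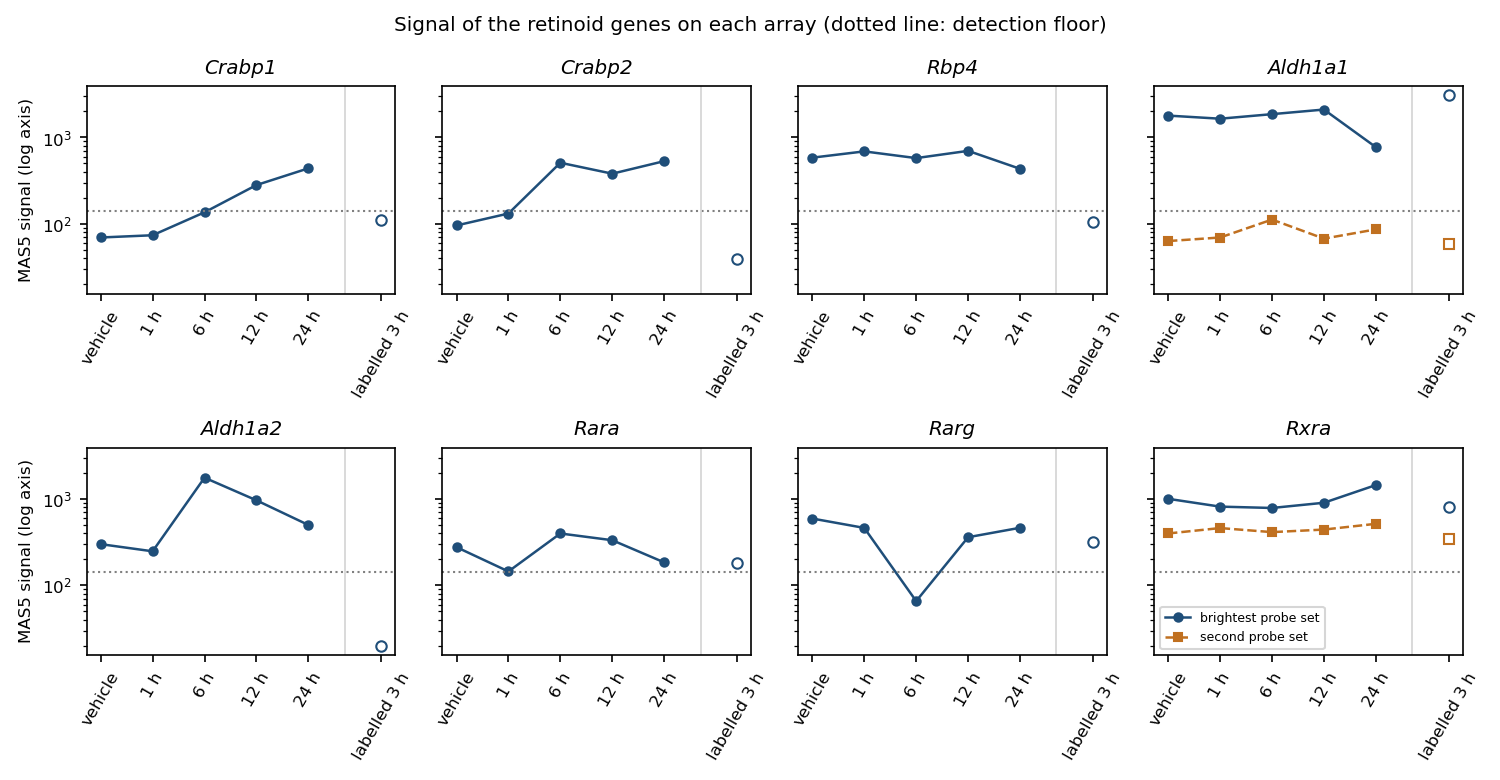
Signal of each probe set of the 8 retinoid genes on each array, on a log axis, with vehicle and 1 to 24 h joined by lines and the array labelled 3 h as open symbols on the right; the dotted line is the floor of 142.8. Aldh1a2 is highest at 6 h (1763), Crabp1 and Crabp2 are highest at 24 h (439.5 and 532), and Rarg is below the floor at 6 h alone among the course arrays (65.8).

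Aldh1a1, another enzyme that makes retinoic acid, had an almost level course followed by a lower value at 24 h. By its brightest probe set the signal was 1791 in vehicle, 1649 after 1 h, 1861 after 6 h, 2104 after 12 h and 773 after 24 h. The 24 h array was the lowest and the 12 h array the highest. It was 2.32-fold lower than vehicle at 24 h, the 98th lowest ratio of 5436 genes measured on both arrays, and 2.72-fold lower than at 12 h. This was the comparison matched in time since injection. A second probe set lay between 63.3 and 112 on the course arrays, below the floor on each, and gave no ratio. With the median of both probe sets the log2 ratio at 24 h was -0.61, since the unmeasured one enters at 0.

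At 24 h the enzymes were thus on opposite sides of vehicle, with log2 ratios of -1.21 for Aldh1a1 and 0.74 for Aldh1a2. At 6 h the values were 0.06 for Aldh1a1 and 2.55 for Aldh1a2.

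Rbp4, which carries retinol in plasma and is made by liver and fat, was under 2-fold from vehicle throughout the course. Signals were 584 in vehicle, 690.3 after 1 h, 577 after 6 h, 700.1 after 12 h and 434 after 24 h. Its lowest and highest arrays, 24 h and 12 h, differed 1.61-fold. Adipocyte markers followed another course on the same arrays. Of 12 on the array, 10 were measured. At 12 h, 5 of them were at least 2-fold lower than vehicle, against 7.55% of all measured genes, and at 24 h 4, against 3.82%. None was higher at these times, against 6.71% and 3.69% of all measured genes. The summed adipocyte signal was 13502 in vehicle and 13900 after 1 h, 7294 after 6 h, 5171 after 12 h and 5007 after 24 h. The fat hormone gene Adipoq had 1482 at 24 h, against 4283 in vehicle. Pparg, a defining factor of fat cells, was below the floor on all 6 arrays. The part of fat in the Rbp4 signal was not tested.

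Among the receptors, Rarg, which encodes retinoic acid receptor gamma, was the only 1 of the 3 measured to be 2-fold from vehicle on a course array. It had a signal of 594 in vehicle, 463 after 1 h, 65.8 after 6 h, 361 after 12 h and 464 after 24 h. The 6 h array alone was below the floor, and the 12 and 24 h arrays lay between it and vehicle. Rarg was at least 4.16-fold lower than vehicle at 6 h, 1.64-fold lower at 12 h and 1.28-fold lower at 24 h. The 6 h value rests on a single probe set on a single array, and its log2 ratio was -0.75 with the floor at the 60th percentile and -3.17 with it at the 20th, beyond the 2.55 of Aldh1a2 at 6 h under that floor.

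Rara, which encodes retinoic acid receptor alpha, was low at 1 h and highest at 6 h. Signals were 277 in vehicle, 145 after 1 h, 399 after 6 h, 333 after 12 h and 185 after 24 h. All were under 2-fold from vehicle, the nearest being 1 h, at 1.91-fold lower and a signal barely above the floor. This was the 19th lowest ratio of 5555 genes measured on both arrays at 1 h. The 6 h array was 2.75-fold above the 1 h array. At 6 h the log2 ratio to vehicle was thus 0.53 for Rara and -2.06 or less for Rarg.

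Rxra, which encodes the partner of all retinoic acid receptors and of several other nuclear receptors, had the flattest course of the receptors. Its brightest probe set had 1004 in vehicle, 816 after 1 h, 787 after 6 h, 904 after 12 h and 1448 after 24 h. The other probe set had 399 in vehicle, 461 after 1 h, 413 after 6 h, 443 after 12 h and 516 after 24 h. Both were highest at 24 h, with log2 ratios to vehicle of 0.53 and 0.37. They disagreed in direction at 1, 6 and 12 h, where the brightest was at -0.30, -0.35 and -0.15 and the other at 0.21, 0.05 and 0.15.

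**Figure D2:**
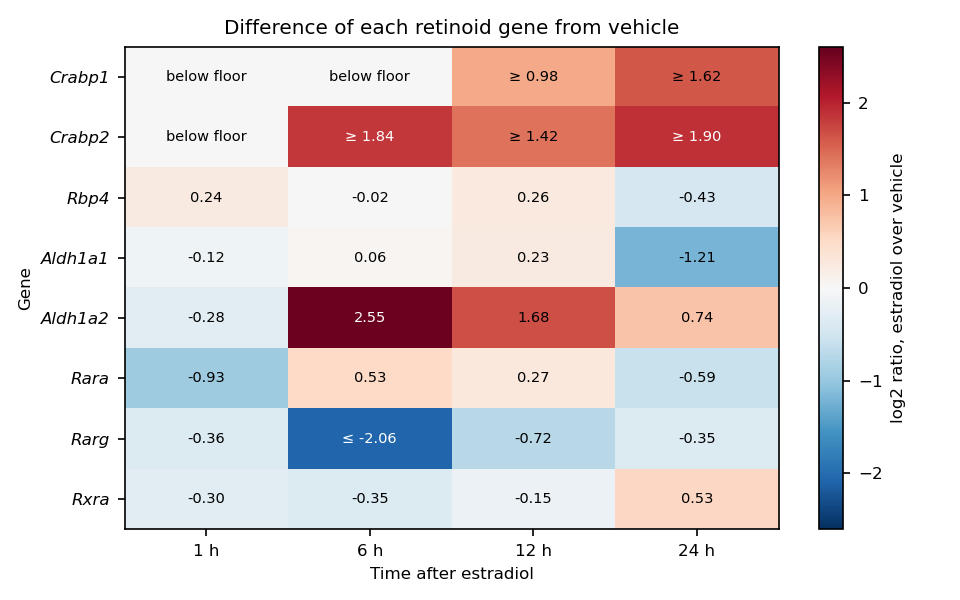
The log2 ratio to vehicle of each retinoid gene (rows, brightest probe set) at 1, 6, 12 and 24 h after estradiol (columns), with signs for lower and upper bounds where 1 array was below the floor, and no value where both were. The strongest colours are Aldh1a2 at 6 h (2.55) and Rarg at 6 h (-2.06 or less), and the column for 1 h holds no gene at 2-fold.

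Counted together, no member was 2-fold from vehicle at 1 h, when 6 of the 8 were measured. The background at 1 h was 0.928% of 6034 measured genes at least 2-fold higher and 0.381% lower. At 6 h, 2 of 7 measured members were higher (Crabp2 and Aldh1a2), against 6.91% of all 6021 measured genes, and 1 was lower (Rarg), against 9.10%. At 12 h all 8 were measured, and 2 were higher (Crabp2 and Aldh1a2), against 6.71% of all genes, and none lower, against 7.55%. At 24 h 2 of 8 were higher (Crabp1 and Crabp2), against 3.69%, and 1 was lower (Aldh1a1), against 3.82%. In all, 5 of the 8 members were 2-fold from vehicle at 1 or more of the 4 times, against 22.4% of 6331 measured genes. With so few members, each of which counts for a large share, nothing particular to the group is read from these counts. The median log2 ratio of the measured members was -0.29, 0.06, 0.26 and 0.09 at 1, 6, 12 and 24 h, and that of all measured genes -0.01, -0.05, -0.04 and -0.04.

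On the array labelled 3 h, 2 of 6 measured members were at least 2-fold lower than vehicle, against 13.0% of all genes, and none was higher, against 11.4%. Aldh1a2 had a signal of 20.0 there and Rbp4 one of 105, both below the floor, so that Aldh1a2 was at least 2.10-fold lower than vehicle and Rbp4 at least 4.09-fold. Crabp1 at 111 and Crabp2 at 39.8 were below the floor too. Aldh1a1 had 3063, Rara 183, Rarg 321 and Rxra 815, all within 2-fold of vehicle. These values come from the array with the skeletal muscle and smooth muscle differences given above. Other lists also differed on that array: all 4 blood genes were at least 2-fold higher, with a summed signal of 34103, against 2675 in vehicle, and 9 of 13 measured genes of macrophages and leukocytes were higher. Of 13 measured uterine epithelium markers, 10 were at least 2-fold lower and 2 higher, with the keratin genes Krt8, Krt18 and Krt19 each at least 15.4-fold lower. The part of these cell types in the members' values was not tested.

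For each of the 5 members at 2-fold, the 3 most similar courses were sought among 5740 other genes that reached the floor on 3 or more of the 5 course arrays, by the root mean square difference of the 4 log2 ratios to vehicle. Nearest to Aldh1a2 were Nop56 (0.20), a protein of the nucleolus, Manf (0.25), a secreted stress protein of the endoplasmic reticulum, and Ddx21 (0.30), an RNA helicase of the nucleolus. Nop56 had log2 ratios of -0.17, 2.46, 1.44 and 0.46 at 1, 6, 12 and 24 h, beside -0.28, 2.55, 1.68 and 0.74 for Aldh1a2. Rarg was nearest to Sspn (0.12), which encodes the membrane protein sarcospan, Phldb2 (0.17) and Tm7sf3 (0.19). Sspn had 655 in vehicle, 521 after 1 h, 143 after 6 h, 376 after 12 h and 576 after 24 h, so it too was lowest at 6 h and close to vehicle by 24 h.

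Courses most like Aldh1a1 were those of Snai1 (0.07), a transcriptional repressor known from epithelial to mesenchymal transition, Cdh11 (0.16), a cadherin of mesenchymal cells, and Agfg1 (0.20). Cdh11 was level up to 12 h and had 204 at 24 h, against 433 in vehicle. For Crabp1 they were Sparc (0.09), a matrix glycoprotein, Ckmt1 (0.19), a mitochondrial creatine kinase, and Tff1 (0.20), a trefoil peptide of mucous epithelia. Sparc had 7234 at 24 h, against 2335 in vehicle. For Crabp2 they were Col6a2 (0.18), a collagen VI chain, Map3k6 (0.26) and Nme2 (0.27), a nucleoside diphosphate kinase. Col6a2 had 15637, 15094 and 16468 at 6, 12 and 24 h, against 4656 in vehicle. The courses of Crabp1, Crabp2 and Rarg include values raised to the floor, so their likeness to other genes depends on it.

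**Figure D3:**
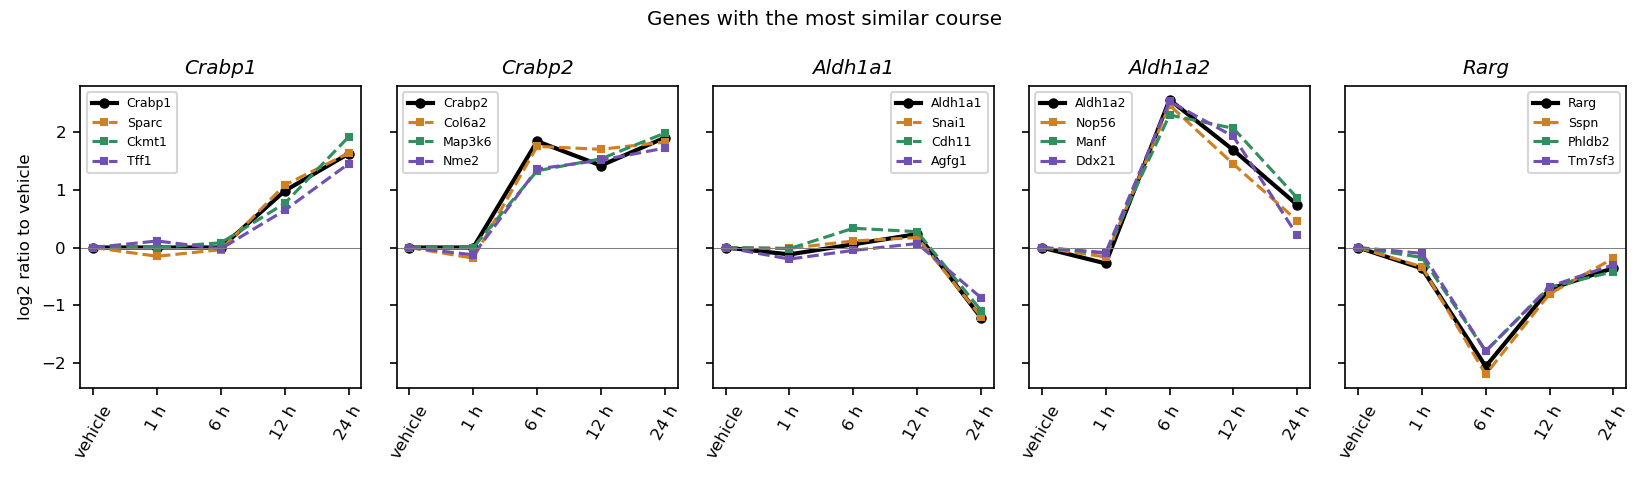
Log2 ratio to vehicle (vertical axis) over the 5 course arrays (horizontal axis) of each member at 2-fold (black) and the 3 genes with the smallest root mean square difference from it (coloured, dashed). The Aldh1a2 group peaks at 6 h, Rarg and its 3 neighbours are lowest at 6 h, the Crabp1 group is above vehicle at 12 h and further above it at 24 h, and the Aldh1a1 group departs from vehicle mainly at 24 h.

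Other genes of the pathway were taken from 6 lists with 107 symbols, of which 79 were on the array. Between 53 and 55 of them were measured at each time of the course. At 1 h, 1 was higher than vehicle (Nr4a1) and none lower. At 6 h, 3 were higher (Adh1, Nr4a1 and Icam1, the last named after its value was seen) and 7 lower, or 5.56% and 13.0% of those measured, against 6.91% and 9.10% of all measured genes. None was higher at 12 or 24 h, against 6.71% and 3.69% of all genes. At 12 h 10 were lower (18.5%, against 7.55% of all genes) and at 24 h 7 (13.2%, against 3.82%). Their median log2 ratio was 0.01, -0.18, -0.33 and -0.30 at 1, 6, 12 and 24 h. With the floor at the 20th percentile, 16, 15 and 9 were lower at 6, 12 and 24 h, and 1 and 2 were higher at 12 and 24 h. With it at the 60th, 3, 5 and 4 were lower at 6, 12 and 24 h, and none was higher at 12 or 24 h. Nothing particular to these lists is read from the counts.

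Among the enzymes that oxidise retinol or reduce retinal, Adh1 and Dhrs3 differed most. Adh1, an alcohol dehydrogenase that acts on retinol, had signals of 1467 in vehicle, 1617 after 1 h, 4520.0 after 6 h, 2518 after 12 h and 1119 after 24 h. It was 3.08-fold higher than vehicle at 6 h, the array on which Aldh1a2 was highest too. Dhrs3, which reduces retinal back to retinol, had 825 in vehicle, 539 after 1 h, 249.6 after 6 h, 275 after 12 h and 415 after 24 h. It was 3.31-fold lower than vehicle at 6 h and 3.00-fold lower at 12 h. Aldh1a3, the third of the retinaldehyde dehydrogenases, had 354 in vehicle and 276 at 1 h and was below the floor afterwards, at least 2.48-fold lower at 6, 12 and 24 h. The short-chain dehydrogenase gene Dhrs7 was 1.73-fold lower at 6 h. Of 12 genes of this list measured at 6 h, 1 was higher, against 6.91% of all measured genes, and 2 lower, against 9.10%. The median log2 ratio of the list was 0.02 then, against -0.05 for all measured genes.

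From 6 h on, the 4 measured genes of uptake and storage were all below their vehicle signal. Stra6, the membrane receptor for Rbp4, had 320 in vehicle and 224 at 1 h, and 66.4, 70.6 and 82.9 at 6, 12 and 24 h, at least 2.24-fold lower at each of the last 3. Lpl, the lipoprotein lipase gene, whose enzyme also frees retinyl esters for uptake, was 3.60-fold lower at 24 h (430.1, against 1550 in vehicle). Lipe, the hormone-sensitive lipase gene, was 1.98-fold lower at 12 h and Dgat1, which can esterify retinol, 1.75-fold. Lpl is made in quantity by fat and Lipe is on the adipocyte list given above, whose summed signal moved the same way, and the part of fat in these values was not tested. No probe set was paired with Lrat, the main retinol esterifying enzyme. Cyp26a1, which destroys retinoic acid, was below the floor on all 6 arrays, with 142.1 as its highest signal, and Cyp26b1 had no probe set.

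Of the remaining retinoid X receptors, Rxrb had 1791 in vehicle, 2120 after 1 h, 1710.2 after 6 h, 1369 after 12 h and 1736 after 24 h, all within 2-fold, and Rxrg was below the floor on all 6 arrays. Among cofactors, the histone acetyltransferase gene Crebbp was 2.41-fold lower at 24 h. The other named cofactors were within 2-fold: Nrip1, a corepressor that is also an estrogen target, was 1.72-fold and Ncoa1 1.62-fold higher at 1 h, and the orphan receptor gene Nr2c1 had a log2 ratio of -0.58 at 6 h. Of the partners of Rxr proteins, the thyroid hormone receptor gene Thra was 3.16-fold lower at 6 h (761, against 2404 in vehicle). Nr1h3, the liver X receptor alpha gene, was 2.65-fold lower at 24 h, and the orphan receptor gene Nr4a1 2.47-fold higher at 6 h. Nr1i3, a xenobiotic receptor gene, was 1.35-fold higher at 1 h.

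Known targets of retinoic acid were mostly within 2-fold of vehicle at each time. At 6 h, 2 of 21 measured were at least 2-fold lower, against 9.10% of all measured genes, and 1 higher (Icam1), against 6.91%. At 12 h, 5 of 20 were lower, against 7.55%, and none higher, against 6.71%. At 24 h, 2 of 20 were lower, against 3.82%, and none higher, against 3.69%. Their median log2 ratio was -0.19, -0.40 and -0.31 at 6, 12 and 24 h, against -0.05, -0.04 and -0.04 for all genes. Nothing particular to this list is read from its counts. Rarres2, a retinoid-responsive gene that encodes the attractant chemerin, had 1010 at 12 h, against 5122 in vehicle, and was 5.07-fold lower. Pck1, a gluconeogenic enzyme gene that fat expresses too, was 3.04-fold lower at 12 h. The summed adipocyte signal was also lower on that array, at 5171 against 13502 in vehicle. The part of fat in the Rarres2 and Pck1 values was not tested. Foxa2, a transcription factor of uterine glands, was at least 2.72-fold lower at 12 h, and the homeobox gene Meis2 2.54-fold lower at 6 h. Plat, the tissue plasminogen activator gene, named after its value was seen, had a log2 ratio of -1.14 at 12 h. Tgm2, a transglutaminase and a classical retinoic acid target, was within 2-fold throughout, at 224 in vehicle and 260.4, 274, 334 and 314 at 1, 6, 12 and 24 h.

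**Figure D4:**
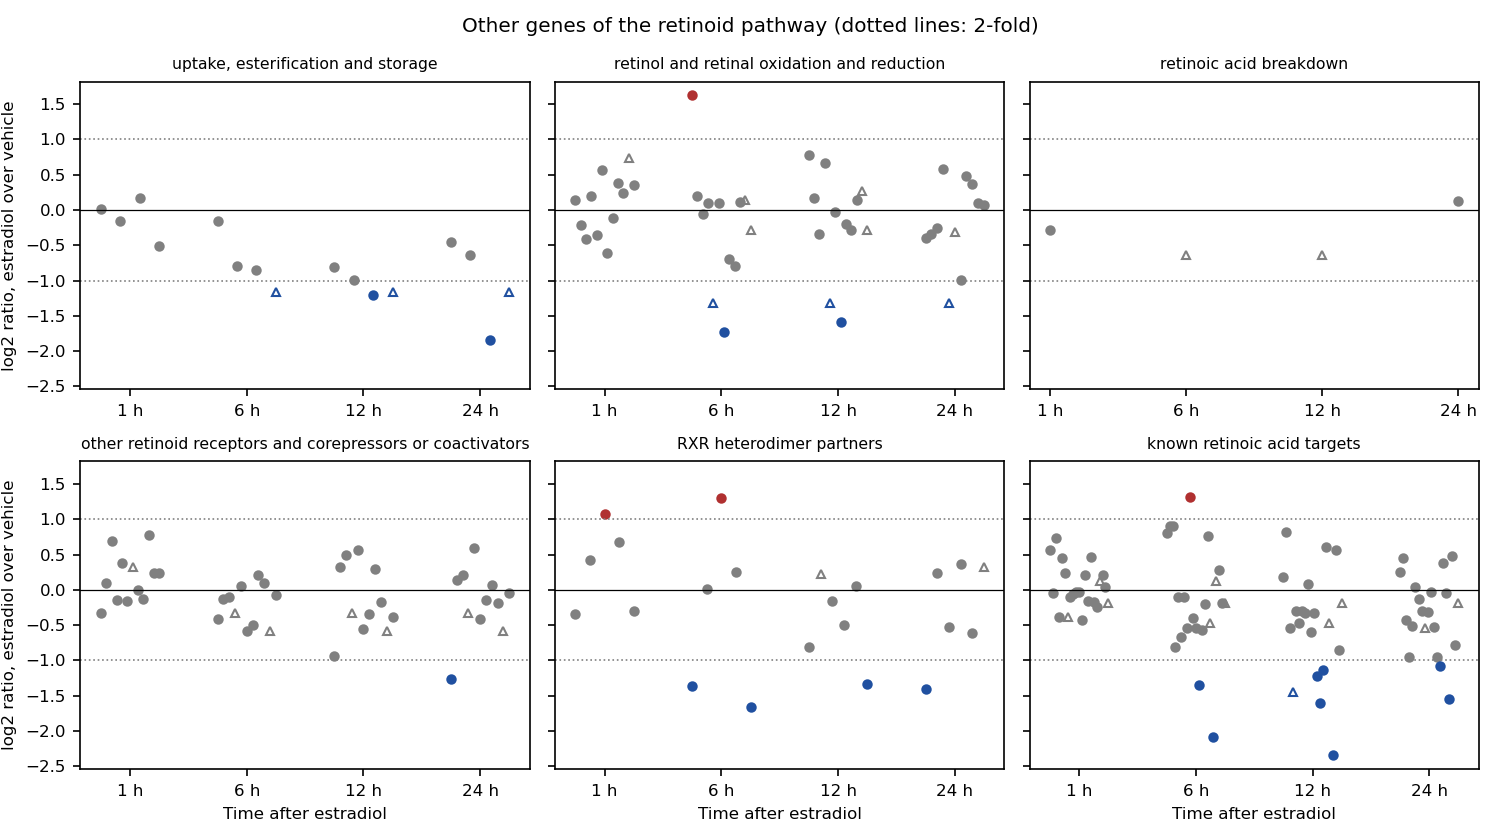
Log2 ratio to vehicle (vertical axis) of each measured gene of the 6 wider pathway lists at 1, 6, 12 and 24 h (horizontal axis). Red marks genes at least 2-fold higher, blue at least 2-fold lower and grey the rest, open triangles are bounds, and dotted lines mark 2-fold; coloured points at 12 and 24 h are all below 0.

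The cell types in which members could lie were followed by marker lists on the same arrays. Uterine epithelium markers had a median log2 ratio of -0.02 at 6 h, 0.21 at 12 h and 0.45 at 24 h. At 24 h, 3 of 13 measured were at least 2-fold higher, against 3.69% of all measured genes, and none lower, against 3.82%. Stromal fibroblast markers had a median of -0.71 at 6 h and of -0.04 at 24 h. At 6 h, 6 of 16 were lower, against 9.10% of all measured genes, and 1 higher, against 6.91%. The summed stromal signal was 69245 in vehicle, 41348 at 6 h and 91255 at 24 h. Rarg was thus lowest on the array with the lowest summed stromal signal of the course, while Aldh1a2 and Adh1 were highest on it. Smooth muscle markers had medians between -0.26 and 0.24 over the course, and endothelial markers between -0.44 and -0.17. Of 12 endothelial markers, 4 were at least 2-fold lower than vehicle at 6 h, 4 at 12 h and 3 at 24 h. Of all measured genes, 9.10%, 7.55% and 3.82% were lower at these times. No endothelial marker was higher then, against 6.91%, 6.71% and 3.69% of all measured genes. The summed endothelial signal was 0.592 of vehicle at 12 h. Markers of macrophages and leukocytes had medians between -0.53 and 0.18. The 5 pancreatic acinar genes on the array had a summed signal of 2044, 1033, 1952 and 1877 at 1, 6, 12 and 24 h, against 4231 in vehicle, so here the vehicle array, the base of every ratio, stood apart. Prss2, a trypsin gene, had 494 in vehicle and at most 43.5 on the other arrays. Blood and liver lists had at most 2 measured genes at each time of the course, with none higher and at most 1 lower. The part of any of these in the members' values was not tested.

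**Figure D5:**
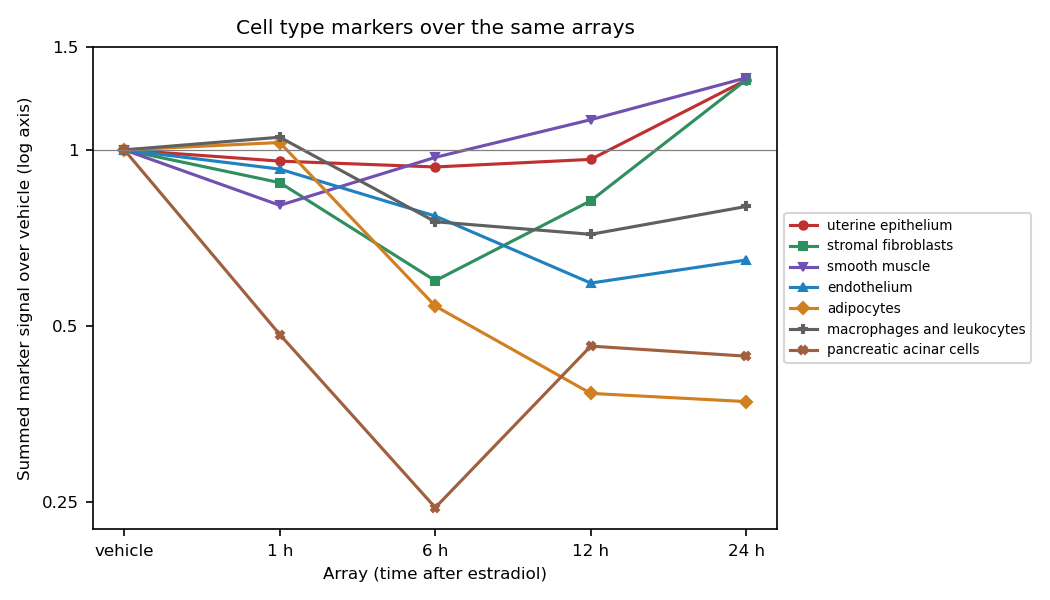
Summed signal of each marker list, except blood and liver, divided by its sum on the vehicle array (vertical log axis). The horizontal axis holds vehicle and 1, 6, 12 and 24 h after estradiol. The adipocyte sum ends at 0.371 of vehicle at 24 h, the stromal sum is lowest at 6 h (0.597), and the epithelial, stromal and smooth muscle sums end above vehicle, at 1.32, 1.32 and 1.33.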

How the data were processed

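RNA from pooled uteri was labelled from 20 µg of total RNA and hybridised to Affymetrix U74Av2 arrays, per the labels' protocols, and read with MAS5, per the submitters' processing notes. The deposited values are linear signal intensities, with no detection calls; the software's version and background settings are not given in the sources used here. The arrays share nearly the same trimmed mean, so they had been scaled before deposit.

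Of 12488 probe sets, 66 controls were left out. The annotation gave 1 symbol for 10833 of the rest, which were named, several for 396 and none for 1193. Current symbols came from RefSeq by gene identifier, for 10817 probe sets. Each array was rescaled to the same mean after trimming 2% at each end, values under the 40th percentile (142.8) were raised to it, and log2 was taken. A gene was read from its brightest probe set by mean log2 signal. For the actin control, 3' over 5' signal was 1.13 to 1.25, and 58.8% to 61.7% of probe sets reached the floor. The number of arrays limits the precision, and no p-value was computed.

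Named genes are all members and, from each wider list, up to 4 genes with the largest ratio at any course time whose brighter array reached the 60th percentile (352.7), together with Rxrb, Rxrg, Stra6, Lrat, Aldh1a3, Cyp26a1, Cyp26b1, Dhrs3, Tgm2 and the estradiol targets Pgr, Ltf and C3. A further gene that the rule names is not reported here. Members and lists were chosen with earlier results of these data known. The calculation was tested on simulated data in which only bright genes were changed, so the recovery of changes near the floor was not tested. In all, 7 alternatives were tried, varying the floor, the scaling, the probe set and the reference. Python 3.11.15, pandas and numpy were used. Promoter windows are those of RefSeq on GRCm38.p6, and match 7 of the 8 members on the array and Rarb. Ltf had a signal of 2078 at 24 h, against 2689 in vehicle, and C3 had no probe set with a single symbol.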

Additional observations from a re-analysis of the deposited data

How the results depend on the processing

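Over the 7 alternatives, 208 of the 216 member ratios of the course kept their side of the 2-fold minimum, and none that was 2-fold from vehicle changed sign. Many of the 208 were well under 2-fold in the main run too. In 6 cases a ratio at 2-fold fell under the minimum, and in 2 a smaller ratio passed it. Aldh1a2 remained at least 2-fold higher at 6 and 12 h under each alternative run, with log2 ratios of 2.32 to 2.69 at 6 h. With the floor at the 60th percentile, the members at least 2-fold higher numbered 1 at 6 h, 1 at 12 h and 0 at 24 h, and those lower at 6 h numbered 0. This follows from the floor itself, since it shortens every ratio against a dim array: Crabp2 stood at 0.53, 0.11 and 0.59 at 6, 12 and 24 h, Crabp1 at 0.32 at 24 h and Rarg at -0.75 at 6 h. With the median of all probe sets, the members lower at 24 h numbered 0, because the dim second probe set of Aldh1a1 enters at 0. Crabp1 at 12 h passed the minimum under a floor at the 20th percentile (2.02) and with arrays scaled to the same median (1.01). That scaling moved the median log2 ratio of all genes at 3 h to -0.02, against -0.14, and the split there to 13.6% higher and 10.5% lower. The reference of vehicle with 1 h could not be used at 1 h. No paired analysis was possible because each group has a single array. The bounds for Crabp1, Crabp2 and Rarg are limited by signal close to the floor, and each member but Aldh1a1 and Rxra rests on a single probe set.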
